A study of Sus scrofa with 48 samples.

Results

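The growth hormone receptor and the insulin-like growth factor (IGF) system were followed in gluteus medius muscle (GM), liver and kidney of the same 16 F2 pigs. The members were 8 genes chosen by name: GHR, IGF1, IGF2, IGF1R, IGF2R, IGFBP2, IGFBP3 and IGFBP5. Their probes were those whose RefSeq transcript accession on the array belongs to one of these genes. This gave 11 of 43603 probes and 7 of the 8 genes, out of 1862 genes that could be named this way. Probes with other transcript names were not assigned to genes, so the array may hold further probes of the members. By RefSeq accession IGF2 had 5 probes, the other 6 genes had 1 each, and no probe was matched to IGF2R. All 11 probes met the criterion of presence in all 3 tissues, so no member left the comparisons through the filter on low signals.

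All pigs were Swiss Large White. The F2 E pigs descended through the male line from F0 boars whose standard diets were supplemented with methylating micronutrients (methionine, choline, betaine, vitamins B6 and B12 and folate), and the F2 C pigs from F0 boars fed the standard diets alone. The F1 boars between them were all fed standard diets, so neither group received the supplement itself. Each group held 8 pigs, 4 barrows (castrated males) and 4 females, and 1 array was hybridised per pig and tissue. Few F0 boars, F1 boars and sows stood behind each group, and some F0 boars were littermates. Pigs of a group can thus share founders, a sire or a litter, and the labels do not say which pigs do. The spread between pigs holds the spread between founders at most in part. Tests that treat the pigs as independent can therefore give p-values that are too small.

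Growth hormone from the pituitary acts through its receptor GHR, which signals by way of JAK2 and STAT5 and induces IGF1, above all in the liver. IGF1 and its fetal relative IGF2 bind the receptor tyrosine kinase IGF1R, whereas IGF2R takes up IGF2 for degradation. Most circulating IGF is held by binding proteins: IGFBP3 forms the large complex with the acid-labile subunit IGFALS, IGFBP2 is an abundant smaller carrier made in the liver, and IGFBP5 acts mainly within tissues. In the pig, IGF2 is known as a gene that influences muscle growth.

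The signal of a spot was its median pixel intensity on a linear scale. Its median over an array was 48 to 88.5 (GM), 88 to 167 (liver) and 48 to 240.5 (kidney), and the number of arrays limits the precision. Replicate numbers are those of the tissue named, and a number can stand for different pigs in different tissues. Local background around the GM spots had a median of 14 to 24 in F2 C and 26 to 28 in F2 E, without overlap. The pig labels fall into a lower and an upper number series. The slides used for GM and for kidney each carried 4 pigs of a single group and series, so slide and group cannot be told apart there, whereas liver slides 1 and 2 carried both groups. Liver slide 1 held 4 barrows and slide 2 held 4 females, 2 of each group and all of the lower series, so values within them are also values within 1 sex. The defining markers fitted the tissue labels: all arrays of the labelled tissue lay above all other arrays for 12 of 13 probes of muscle genes, 9 of 9 of liver genes and 5 of 6 of kidney genes, the exceptions being MYOG and a probe of SLC22A6. P-values measure the spread between these pigs.

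The first comparison asked where the system is transcribed. Its members differed strongly between the tissues. Liver had the highest signals of IGF1, IGFBP2 and IGFBP3, kidney had the highest signals of IGF1R and IGFBP5, and all 5 probes of IGF2 were lowest in kidney. For this comparison the 48 arrays were normalized together, and log2 ratios came from limma with the pig as a random block. At an adjusted p below 0.05, 9 of 11 member probes were called between liver and GM, where 70.6% of all 34501 probes were called. Between liver and kidney 11 of 11 were called (70.0% of all probes), and between kidney and GM 11 of 11 (75.1%). Members were thus called somewhat more often than the bulk of the array, but 5 of the 11 probes belong to 1 gene, IGF2. This excess was not tested, and the sizes of the member ratios are what follows. In tissue RNA, fewer cells of a type and less RNA per cell cannot be told apart. All kidney arrays were scanned on a day of their own and each slide held a single tissue, so tissue cannot be told apart from slide.

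**Figure D1:**
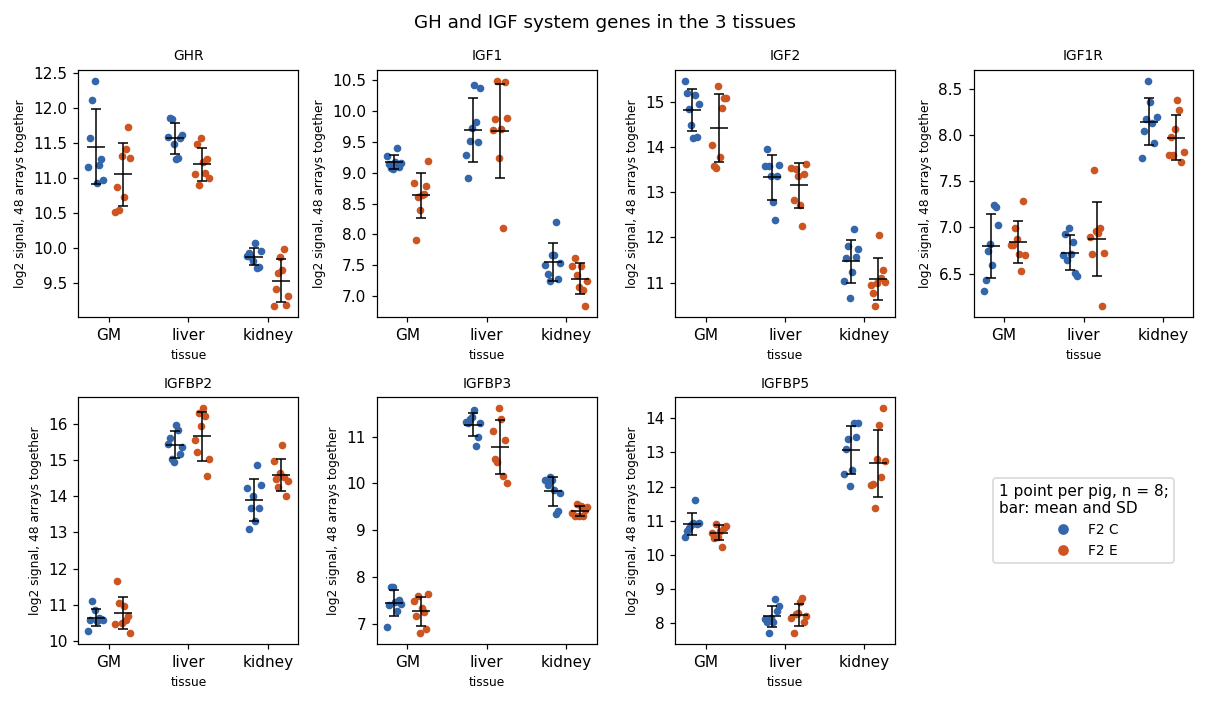
Each panel plots the log2 signal (y axis, 48 arrays normalized together) of the main probe of a member gene in GM, liver and kidney (x axis). Points are single pigs, 8 F2 C in blue and 8 F2 E in orange, and bars give mean and SD. IGFBP2 spans 14.57 to 16.43 in liver but 10.22 to 11.65 in GM, while IGFBP5 ranges from 11.36 to 14.29 in kidney and from 7.72 to 8.75 in liver. Levels of different genes are not comparable, since each probe has its own scale.

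Of the receptors, GHR had log2 signals of 10.90, 11.38 and 11.85 in liver (lowest, median and highest of 16 pigs), 10.51, 11.22 and 12.38 in GM, and 9.17, 9.77 and 10.07 in kidney. Every kidney lay below every liver and every GM sample, while liver and GM overlapped. The log2 ratio was 1.68 for liver over kidney (SE 0.12, 3.20-fold, adjusted p = 8.69e-18, higher in 16 of 16 pigs) and -1.55 for kidney over GM (SE 0.12, adjusted p = 1.09e-16). Between liver and GM it was 0.13, with a 95% interval from -0.10 to 0.37, and did not pass (adjusted p = 0.320). IGF1R, the receptor kinase of both growth factors, ran the other way. Its log2 signals were 7.71, 8.06 and 8.59 in kidney, 6.31, 6.81 and 7.29 in GM, and 6.15, 6.78 and 7.62 in liver. Kidney exceeded GM by 1.24 (SE 0.10, 2.37-fold, adjusted p = 1.54e-15) and liver by 1.26, in 16 of 16 pigs each. GM and liver did not differ beyond their spread (log2 ratio of liver over GM -0.02, 95% interval from -0.22 to 0.19, adjusted p = 0.875). The IGF1R spots of GM were dim, with 12 of 16 well above background.

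Of the ligands, IGF1 had log2 signals of 8.10, 9.72 and 10.48 in liver, 7.92, 9.06 and 9.40 in GM, and 6.85, 7.43 and 8.21 in kidney. Liver exceeded kidney by 2.26 (SE 0.15, 4.80-fold, adjusted p = 6.62e-19) in 16 of 16 pigs and GM by 0.79 (SE 0.15, 1.73-fold, adjusted p = 6.09e-06) in 14 of 16. The liver values also spread most, with an SD of 0.63 over the 16 pigs against 0.38 in GM and 0.31 in kidney. IGF2 was lowest in kidney with each of its 5 probes. The log2 ratio of liver over kidney lay between 1.96 and 2.74 and that of kidney over GM between -3.34 and -2.10, each in the same direction in 16 of 16 pigs. The probes disagreed, however, between liver and GM. Probes A_72_P055876 (log2 ratio 0.61, SE 0.11, adjusted p = 2.37e-06) and A_72_P414443 (0.36, SE 0.13, adjusted p = 0.0103) were higher in liver. Probes A_72_P209727 (-0.44, SE 0.11, adjusted p = 0.000553), A_72_P414438 (-0.43, SE 0.12, adjusted p = 0.00107) and A_72_P303139 (-1.37, SE 0.18, adjusted p = 2.34e-09) were higher in GM. The probe with the brightest signal, A_72_P303139, was higher in GM in 16 of 16 pigs and A_72_P055876 higher in liver in 16 of 16, so no single direction can be given for IGF2 between these tissues.

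**Figure D2:**
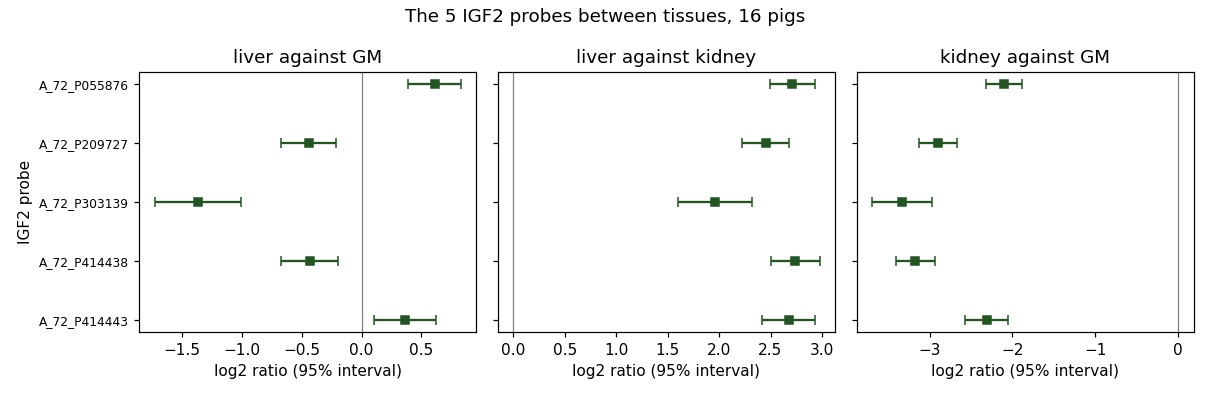
Log2 ratios (x axis) with 95% intervals for the 5 IGF2 probes (y axis) between pairs of tissues, over 16 pigs. All 5 probes lie above 0 for liver against kidney and below 0 for kidney against GM, whereas for liver against GM they run from -1.37 to 0.61.

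The binding proteins showed the largest tissue differences among the members. IGFBP2 had log2 signals of 14.57, 15.50 and 16.43 in liver, 13.09, 14.28 and 15.42 in kidney, and 10.22, 10.60 and 11.65 in GM. GM was thus separate from both other tissues. Liver exceeded GM by 4.84 (SE 0.16, 28.6-fold, adjusted p = 6.30e-31) in 16 of 16 pigs and kidney by 1.30 (SE 0.16, 2.46-fold, adjusted p = 8.84e-10) in 15 of 16. IGFBP3, the main serum carrier, followed the same order. Its log2 signals were 10.00, 11.21 and 11.61 in liver, 9.29, 9.51 and 10.13 in kidney, and 6.80, 7.41 and 7.79 in GM, where 14 of 16 spots were well above background. Liver exceeded GM by 3.66 (SE 0.11, 12.6-fold, adjusted p = 3.67e-32) and kidney by 1.39 (2.63-fold), both in 16 of 16 pigs. IGFBP5 had the reverse order between liver and kidney. It had log2 signals of 11.36, 12.77 and 14.29 in kidney, 10.25, 10.78 and 11.59 in GM, and 7.72, 8.18 and 8.75 in liver. Kidney exceeded liver 24.9-fold (log2 ratio of liver over kidney -4.64, SE 0.18, adjusted p = 7.90e-28) and GM 4.28-fold (log2 ratio 2.10, SE 0.18, adjusted p = 9.54e-15). Of the 7 genes, IGFBP5 in kidney also varied most between pigs in these main probes, with an SD of 0.84.

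The directions of the called differences did not depend on the scaling. When each array's median signals were instead divided by their 75th percentile, the median ratio of all probes moved to -0.25 for liver over GM, to 0.38 for liver over kidney and to -0.60 for kidney over GM. The share of called probes that were higher in the tissue named first moved from 50.4% to 37.6%, from 47.8% to 67.8% and from 53.1% to 29.6% in this order. Relative to that median, IGFBP2 stood at 5.28 in liver over GM, IGFBP5 at -4.88 in liver over kidney and IGF1R at 1.52 in kidney over GM. The call of IGF2 probe A_72_P414443 between liver and GM was lost under that scaling (0.29, adjusted p = 0.0643) and with the background-corrected signal (0.29, adjusted p = 0.0674).

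Of 48 further genes of the pathway, 18 were on the array under a RefSeq name, with 23 probes, and 19 of these were compared between tissues. Between liver and GM 8 were called higher in liver and 7 lower (35.6% and 35.0% of all probes). Between liver and kidney 11 were higher and 4 lower (33.5% and 36.6%), and between kidney and GM 3 were higher and 9 lower (39.9% and 35.2%). The median log2 ratio of the list was -0.149, 0.328 and -0.339 in this order, against 0.00818, -0.0174 and 0.0477 over all probes. IGFALS, the subunit that holds IGFBP3 in its large serum complex, was at least 6.96-fold higher in liver than in GM (limma adjusted p = 2.15e-29), where 3 of 16 spots were well above background and the probe did not count as present. Such a bound sets the bright mean against the higher of the dim signal and the lowest signal well above background on each array. IGFALS was 7.46-fold higher in liver than in kidney. SOCS2, a feedback inhibitor of GHR signalling, was higher in liver than in kidney with both of its probes (log2 ratios 2.32 and 2.01) and higher than in GM (1.46 and 1.63). IGFBP6, a carrier that prefers IGF2, stood at the other end, 34.8-fold lower in liver than in GM (log2 ratio -5.12, SE 0.16, adjusted p = 8.55e-32, 15 pigs because 1 spot was marked as an outlier) and 5.12-fold lower than in kidney. GRB10, an adaptor that restrains insulin and IGF1 receptors, was 7.16-fold lower in liver than in GM and 8.84-fold lower in kidney than in GM. The transcription factor genes STAT5B (probe A_72_P302659) and STAT5A were lower in kidney than in GM, by 9.67-fold and 6.84-fold, and STAT5B was 3.68-fold lower in liver than in GM. PTPN1, a phosphatase that acts on the insulin receptor and JAK2, had 4 probes that disagreed. Probes A_72_P437044 and A_72_P157406 were higher in kidney than in GM (log2 ratios 1.01 and 0.42), as was A_72_P131831 by at least 1.07-fold, although in GM that probe was well above background on 1 of 16 arrays. The fourth, A_72_P192882, did not pass there (adjusted p = 0.989). Between liver and kidney A_72_P437044 was lower in liver (-0.53) and A_72_P192882 higher (0.64, SE 0.10, adjusted p = 7.61e-08), so no single direction can be given for PTPN1. STC1, an inhibitor of the proteases that cleave IGF-binding proteins, was at least 1.48-fold higher in kidney than in liver, where 2 of 16 spots were well above background.

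The genes most like each member in their profile over the 48 arrays were ranked by Pearson's r among 1723 named genes, as a description dominated by the 3 tissues. GHR was closest to NFKB1 (r = 0.932), CDH5 (0.930) and ST8SIA4 (0.904). IGF1 was closest to SERPINF1 (0.909), FOLR1 (0.892) and FCN2 (0.890), and IGF2 to GRK7 (0.956), TNFSF12 (0.951) and KLHDC3 (0.931). For IGF2 this describes its brightest probe, A_72_P303139, alone, since its other probes, which disagreed between liver and GM, were not ranked. The profile of IGF1R was nearest to SLC34A1 (0.906), DPEP1 (0.903) and KLK1 (0.903), that of IGFBP2 to CDH1 (0.965), CYP2C33 (0.957) and CYP2D25 (0.956). IGFBP3 was nearest to CES1 (0.971), MAOB (0.968) and GSTO1 (0.967), and IGFBP5 to AQP1 (0.962), RHCG (0.956) and S100A11 (0.940).

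The second comparison, F2 E against F2 C, asked whether the diet of the F0 boars was followed by a change in expression in their F2 descendants. No member probe passed in any tissue after adjustment over all probes. The smallest adjusted p-values were those of IGF1 in GM, GHR in liver and IGFBP3 in kidney, and each had its lower mean in F2 E. For this comparison arrays were normalized within each tissue. In limma at an adjusted p below 0.05, 0 of 11 member probes were called in GM, where 0.769% of all 25625 probes were called. The count was also 0 of 11 for liver (0.0937% of 28823 probes) and for kidney (0.0119% of 33664 probes). The unadjusted p was below 0.05 for 1 of 11 in GM (9.09%, against 16.1% of all probes), for 2 of 11 in liver (18.2%, against 8.29%) and for 4 of 11 in kidney (36.4%, against 3.89%). Over the members the median log2 ratio was 0.0274 (GM), -0.141 (liver) and -0.338 (kidney), set against -0.0183, -0.0156 and -0.0128 over all probes. In kidney 10 of 11 probes had a ratio below 0, and 5 of these 10 were probes of 1 gene, IGF2. The methods' t-test also called 0 member probes after adjustment in each tissue, and at the methods' limit of p below 0.01 it had 1 of 11 member probes per tissue, against 5.50% (GM), 2.15% (liver) and 1.05% (kidney) of all probes. Of these member probes 0 reached the 2-fold limit.

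**Figure D3:**
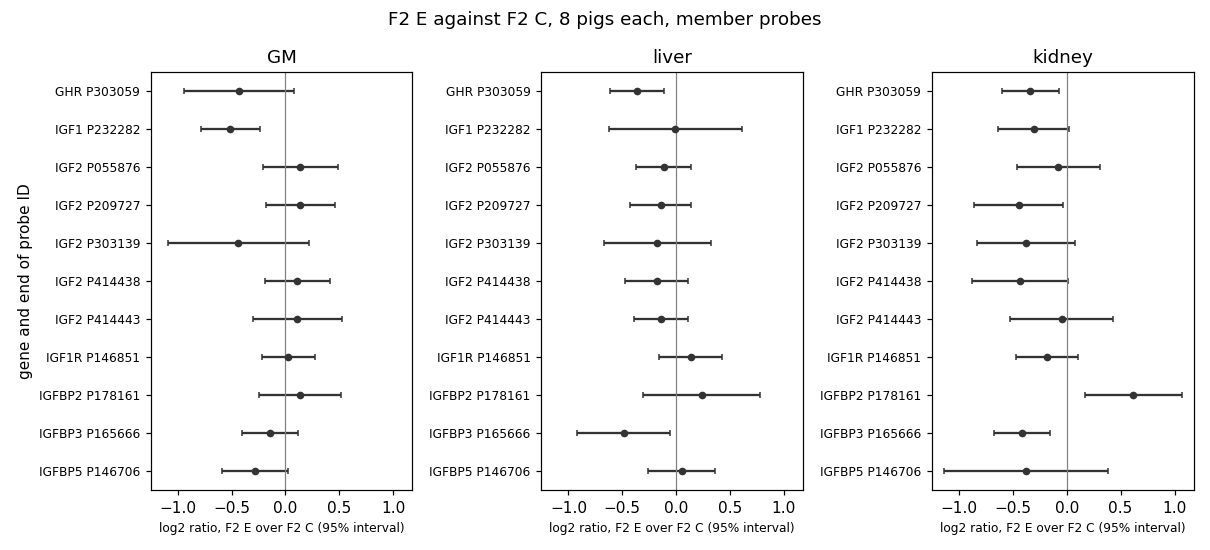
Ratio of F2 E to F2 C on the log2 scale (x axis) with its 95% interval for the 11 member probes (y axis, gene and end of the probe's name) in GM, liver and kidney, 8 pigs per group. IGF1 in GM (-0.51), GHR and IGFBP3 in liver (-0.37 and -0.49) and GHR, IGFBP3 and IGF2 probe A_72_P209727 in kidney (-0.34, -0.42 and -0.45) have intervals below 0, and IGFBP2 in kidney (0.62) has one above 0. None of them passes after adjustment.

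IGF1 in GM had log2 signals of 8.11, 8.20 and 8.44 in F2 C (lowest, median and highest of 8 pigs) and 7.05, 7.72 and 8.24 in F2 E. Of the F2 E pigs, 7 of 8 lay below the lowest F2 C pig and 1 lay within the F2 C range. The means were 8.22 ± 0.11 in F2 C and 7.71 ± 0.34 in F2 E (SD, n = 8 each). The log2 ratio was -0.51 (SE 0.13, 1.43-fold lower, limma adjusted p = 0.0702). The exact two-sided permutation test of this probe alone gave p = 0.00109. Within the lower number series the ratio was -0.42 and within the upper -0.60. With the number series as a block the adjusted p was 0.0439, with the slide as a random block it was 0.636, and without F2 E replicate 8, the highest pig of its group, it was 0.0333 (log2 ratio -0.59). Over the alternatives tried, the adjusted p of IGF1 lay between 0.0333 and 0.636. The GM spots of the groups also differed in local background, as given above, and its part in the IGF1 ratio was not tested, although the ratio from the background-corrected signal was -0.59 (adjusted p = 0.0872). In liver, where IGF1 is most abundant, the log2 ratio was -0.01 with a 95% interval from -0.62 to 0.61, and it was -1.21 within slide 1 (barrows) and 0.25 within slide 2 (females). In kidney it was -0.31, with an interval from -0.64 to 0.02.

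GHR had its lower mean in F2 E in all 3 tissues, as did IGF1, IGFBP3 and the brightest IGF2 probe, A_72_P303139. In liver its log2 signals were 11.26, 11.57 and 11.84 in F2 C and 10.90, 11.14 and 11.55 in F2 E. All 8 F2 E pigs lay below the F2 C median and 6 lay below the lowest F2 C pig. The log2 ratio was -0.37 (SE 0.12, limma adjusted p = 0.362), with an exact permutation p of 0.00591. The ratio was -0.13 within slide 1 (barrows) and -0.45 within slide 2 (females), with 2 pigs per group on each, and -0.29 with the slide as a fixed block. In that last fit slides 1 and 2 alone bear on the group, since slides 3 and 4 each held a single group. In kidney the log2 signals of GHR were 10.30, 10.46 and 10.65 in F2 C and 9.76, 10.11 and 10.56 in F2 E. There 6 of 8 F2 E pigs lay below the lowest F2 C pig, and the log2 ratio was -0.34 (SE 0.12, limma adjusted p = 1.00, exact permutation p = 0.0137). Neither the liver nor the kidney ratio of GHR passed after adjustment over all probes.

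In GM the means of GHR differed by -0.43 (SE 0.24, adjusted p = 0.391), but the number series ran in opposite directions. In the lower series the F2 C pigs had log2 signals of 10.02 to 10.41 and the F2 E pigs 10.43 to 10.90, so F2 E was higher without overlap (log2 ratio 0.38, adjusted p = 0.218). In the upper series the F2 C pigs had 10.28 to 11.60 and the F2 E pigs 9.57 to 9.96, so F2 E was lower without overlap (log2 ratio -1.24, adjusted p = 0.0337). Tested as an interaction of group and number series, a test added after these values were seen, the ratio was 1.63 lower in the upper series (log2 scale, interaction -1.63, SE 0.32, limma adjusted p = 0.00735). At that limit 7.00% of all GM probes were called for the same interaction. Each of the 4 sets of 4 pigs lay on a slide of its own, so number series and group together cannot be told apart from the slide. The brightest IGF2 probe, A_72_P303139, had the same pattern in GM. Its ratio of F2 E over F2 C was 0.52 in the lower series and -1.39 in the upper (interaction -1.91, SE 0.36, limma adjusted p = 0.00665). IGF2 probe A_72_P055876 ran the opposite way, from -0.28 to 0.55 (interaction 0.83, SE 0.24, adjusted p = 0.0498), and the other 3 probes of the gene had interactions of 0.28 to 0.77 that did not pass. The probes of IGF2 thus disagreed in GM also in how the groups differed. In liver and kidney 0 of 11 member probes passed this interaction (0.104% and 3.50% of all probes), and the unadjusted p was below 0.05 for 0 and 1 of them.

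**Figure D4:**
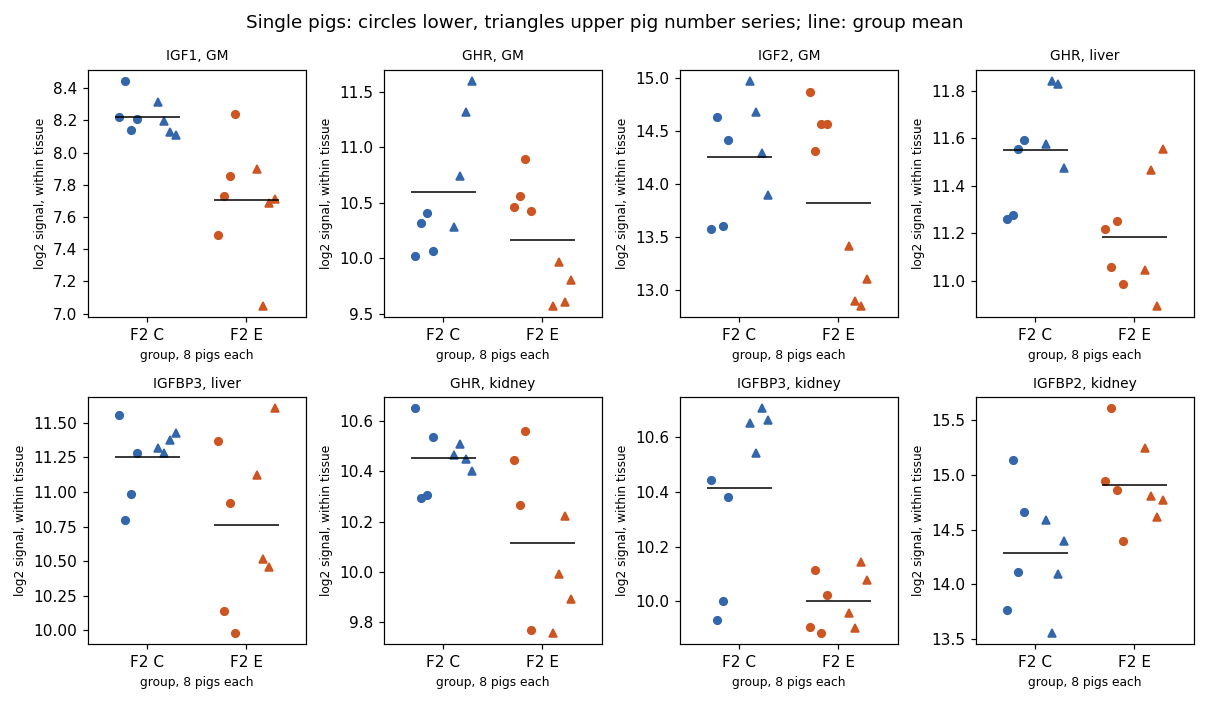
Log2 signal (y axis, normalized within the tissue) of single pigs in F2 C and F2 E (x axis, 8 pigs each) for the main probes of IGF1, GHR and IGF2 in GM, GHR and IGFBP3 in liver, and GHR, IGFBP3 and IGFBP2 in kidney. Circles are pigs of the lower and triangles of the upper number series, and lines are group means. In GM, GHR of the F2 E pigs lies above F2 C in the circles (10.43 to 10.90 against 10.02 to 10.41) and below it in the triangles (9.57 to 9.96 against 10.28 to 11.60).

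Among the binding proteins, IGFBP3 was lower on average in F2 E in liver and kidney. In kidney its log2 signals were 9.93, 10.49 and 10.71 in F2 C and 9.88, 9.99 and 10.14 in F2 E. All 8 F2 E pigs lay below the F2 C median and 3 below the lowest F2 C pig, and 2 F2 C pigs lay within the F2 E range. The log2 ratio was -0.42 (SE 0.12, limma adjusted p = 0.711, exact permutation p = 0.00466). It was -0.62 in the upper number series, which passed (adjusted p = 0.0276), and -0.21 in the lower (adjusted p = 0.809). In the upper series alone 534 of 33662 kidney probes were called, against 4 in the main fit. The interaction of group and number series did not pass for IGFBP3 in kidney (-0.41, SE 0.19, limma adjusted p = 0.292). In liver the log2 signals of IGFBP3 were 10.80, 11.30 and 11.56 in F2 C and 9.98, 10.72 and 11.60 in F2 E. The F2 E pigs spread more (SD 0.58 against 0.25), and the ranges overlapped. The log2 ratio was -0.49 (SE 0.21, limma adjusted p = 0.539), with -0.42 within slide 1 and -0.68 within slide 2.

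IGFBP2 moved the other way in kidney, with log2 signals of 13.56, 14.25 and 15.14 in F2 C and 14.40, 14.83 and 15.61 in F2 E. All 8 F2 E pigs lay above the F2 C median, although the ranges overlapped. The log2 ratio was 0.62 (SE 0.21, 1.53-fold higher in F2 E, limma adjusted p = 0.984, exact permutation p = 0.0165). IGFBP2 is highest in liver, so liver markers were also looked at in kidney. Of 8 liver marker probes compared in kidney, 2 had an unadjusted p below 0.05 and 0 were called, and their summed signal was 21190 to 39218 in F2 C and 22909 to 107964 in F2 E. The part of this in the IGFBP2 ratio was not tested. In liver the IGFBP2 ratio was 0.24 with a 95% interval from -0.31 to 0.78 (0.43 within slide 1 and -0.51 within slide 2), and in GM 0.13 with an interval from -0.25 to 0.52. For IGFBP5 the ratios were -0.28 (GM), 0.05 (liver) and -0.38 (kidney), none of them past an unadjusted p of 0.05. IGF1R, the receptor kinase, had ratios of 0.03, 0.14 and -0.18 in the same order, with intervals that all held 0. Its GM ratio is limited by dim spots, with 8 of 8 F2 C but 4 of 8 F2 E spots well above background. Of the 5 IGF2 probes, the GM ratios spanned -0.44 to 0.14, those of liver -0.18 to -0.12 and those of kidney -0.45 to -0.05. Only A_72_P209727 in kidney was past an unadjusted p of 0.05 among them (-0.45, SE 0.20, limma adjusted p = 1.00).

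Of the kidney arrays, 2 stood apart as dim, both of F2 E. Replicates 5 and 7 had a median signal of 48 each, under 50% of the kidney median, with 27156 and 25071 probes well above background. The F2 C kidney arrays had medians of 100 to 178, with 30718 to 36804 probes well above background. Without these 2 arrays, a choice made after seeing them, 0 of 11 member probes were called in kidney (limma, with 7 calls over all 33664 probes). The ratio of IGFBP5 then moved to -0.80 (SE 0.29, adjusted p = 0.730), that of IGFBP3 to -0.44, that of GHR to -0.31 and that of IGFBP2 to 0.59. The 5 IGF2 probes lay between -0.61 and -0.29. The part of array brightness in these ratios was not tested.

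The difference between F2 E and F2 C was also set against tissue. In limma 0 of 11 member probes passed for the interaction of group with liver against GM (0.122% of all probes), with liver against kidney (0.0203%) and with kidney against GM (0.0464%). The unadjusted p was below 0.05 for 0, 0 and 2 of them in this order, against 7.48%, 2.28% and 5.70% of all probes. The 2 were IGF2 probes A_72_P209727 (interaction -0.58, SE 0.23, adjusted p = 0.733) and A_72_P414438 (-0.53, SE 0.24, adjusted p = 0.813). For IGF1 the ratio of F2 E over F2 C was 0.53 higher in liver than in GM, with a 95% interval from -0.07 to 1.12 (adjusted p = 0.748). The data thus did not separate the GM ratio of IGF1 from its liver ratio.

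Of the further pathway genes, 16 (GM), 17 (liver) and 18 (kidney) probes were compared between F2 E and F2 C. In limma 0 of these were called, against 0.769%, 0.0937% and 0.0119% of all probes. The unadjusted p was below 0.05 for 2, 5 and 0 of them, against 16.1%, 8.29% and 3.89% of all probes. The median log2 ratio of the list was -0.0384, -0.0608 and 0.0195, against -0.0183, -0.0156 and -0.0128 over all probes. The genes named here were chosen after their values were seen. In liver, SOCS2 had ratios of -0.92 (SE 0.34, adjusted p = 0.461) and -0.85 (SE 0.33, adjusted p = 0.490) with its 2 probes, and IGFALS had a ratio of -0.71 (SE 0.20, limma adjusted p = 0.275), with 8 of 8 F2 E pigs below the F2 C median. STAT5B probe A_72_P302659 had -0.31 (adjusted p = 0.499) and GRB10 0.27 (adjusted p = 0.558). The other STAT5B probe, A_72_P033581, did not share that direction, with liver means of 6.95 in F2 E and 6.91 in F2 C. In GM, spots of STC1 were well above background on 6 of 8 F2 C and 2 of 8 F2 E arrays (adjusted p = 0.231), and those of GH1, the gene of growth hormone, on 0 of 8 and 4 of 8 (adjusted p = 0.234), so no ratio is given for them. The probes of IGF1 in GM and IGFALS in liver stand among those the study selected on these same pigs, so their low p-values are not independent evidence. In liver and in kidney, 1 member probe each also passed the methods' unadjusted limit given above. Among the members, GHR had the smallest p-value in liver and IGFBP3 in kidney. Their low p-values come from the same pigs and are not independent evidence either.

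Markers of other cell types did not pass between F2 E and F2 C in limma. These lists covered few genes: 3 of 5 leukocyte, 2 of 3 endothelial and 1 of 5 fibroblast genes (DCN) were named on the array, beside 6 of 6 adipocyte genes. In GM, 0 of 6 adipocyte, 0 of 6 leukocyte, 0 of 4 endothelial and 0 of 3 fibroblast probes were called, with 0 at an unadjusted p below 0.05 in each list. Summed adipocyte signals ranged from 18619 to 37449 in F2 C and from 19480 to 65685 in F2 E. In liver, 1 of 4 adipocyte and 1 of 3 fibroblast probes had an unadjusted p below 0.05, and the fibroblast probes disagreed, with log2 ratios from -0.61 to 0.37. The summed signal of liver's own markers was 1283607 to 3019323 in F2 C and 2667381 to 3082617 in F2 E. Their part in the ratios of the members was not tested.

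The third comparison was between barrows and females with the group as a covariate. Castrated males are known to be fatter than females, and growth hormone secretion is known to depend on sex. No member was called in limma: GM had 0 of 11 (0.121% of all probes), liver 0 of 11 (0.121%) and kidney 0 of 11 (0.0921%). The unadjusted p was below 0.05 for 0 members in GM (3.86% of all probes), 2 in liver (14.2%) and 0 in kidney (0.939%). The 2 liver genes were IGFBP2 and IGF1, and their ratios had opposite signs. IGFBP2 had log2 signals of 15.65 to 16.65 in the 8 barrows and 14.68 to 16.51 in the 8 females, of whom 7 lay below every barrow. The exception was F2 E replicate 3. Sex was in part bound up with slide and scan day, since slide 1, the only one of its scan day, held barrows alone and slide 2 females alone. The log2 ratio of barrow over female was 0.72 (SE 0.20, 1.65-fold, limma adjusted p = 0.184, exact permutation within groups p = 0.00776). Without that female it was 0.88, with an adjusted p of 0.0335, and with any other pig left out the ratio did not pass. With the slide as a fixed block, when slides 3 and 4 alone bear on sex, it was 0.30 (SE 0.25, adjusted p = 1.00). IGF1 had log2 signals of 8.10 to 10.41 in barrows and 9.46 to 10.48 in females. The ranges overlapped, and the log2 ratio was -0.58 (SE 0.27, limma adjusted p = 0.334, exact permutation p = 0.0678), or -0.62 with the slide block (SE 0.36, adjusted p = 1.00). The interaction of group and sex was called in limma for 0 of 11 member probes in each tissue (0.00% of all probes in GM, liver and kidney). Its unadjusted p was below 0.05 for 0 members in each, against 3.47%, 1.76% and 2.63% of all probes.

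**Figure D5:**
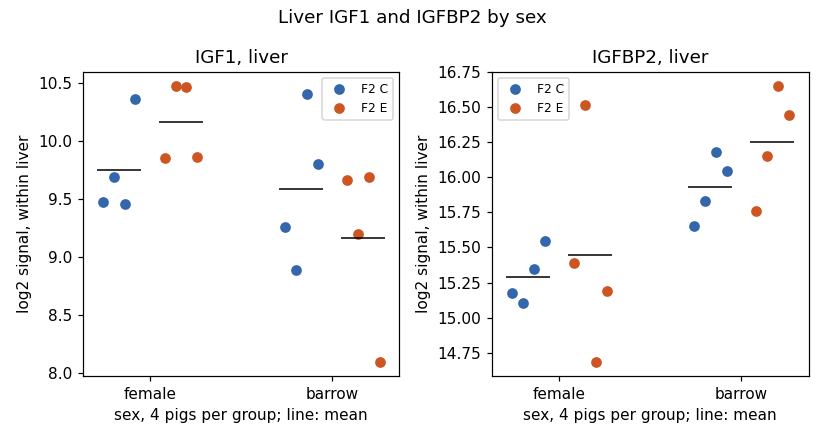
Log2 signal (y axis, normalized within liver) of IGF1 and IGFBP2 in females and barrows (x axis), F2 C in blue and F2 E in orange, 4 pigs per group and sex, with lines at the means. IGFBP2 lies from 15.65 to 16.65 in barrows, and 1 female, at 16.51, lies among them.

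Whether pigs with more of one transcript had more of another was asked over the 16 pigs, as deviations from the mean of their group. In all, 39 relations were computed, 6 pairs of members within each tissue and each of 7 members between pairs of tissues, with p-values from 100000 permutations. After Benjamini-Hochberg adjustment over the 39, 1 relation passed by Pearson's r, and 2 were past an unadjusted p of 0.05. IGF1 and IGFBP2 in GM had r = -0.77 (permutation p = 0.00115, adjusted p = 0.0448). Spearman's rho was -0.56 (permutation p = 0.0253, adjusted p = 0.508). Without the 2 pigs farthest from the median of IGF1, r was -0.30, so the relation rests on those pigs. Within F2 C it was -0.51 (exact permutation p = 0.194) and within F2 E -0.83 (exact permutation p = 0.0148). In kidney the same pair had r = 0.64 (permutation p = 0.00768, adjusted p = 0.15) and rho = 0.56 (permutation p = 0.0270, adjusted p = 0.508), and r was 0.38 without 2 pigs. GHR and IGF1 had r = -0.32 in liver (permutation p = 0.232, adjusted p = 0.592), -0.01 in GM and -0.11 in kidney. Between tissues, IGFBP3 had r = 0.45 for GM with liver (permutation p = 0.0823), 0.34 for GM with kidney (p = 0.202 by permutation) and 0.46 for liver with kidney (permutation p = 0.0701), each with an adjusted p of at least 0.522. IGF1 of liver and GM had r = 0.02. Values of 1 tissue come from the same arrays. Taken as deviations from the means of the slides, which held 4 pigs each, r of IGF1 and IGFBP2 was -0.73 in GM and 0.71 in kidney.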

How the data were processed

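RNA of GM, liver and kidney was hybridised in 1 colour to 48 Agilent porcine arrays. The authors scanned them and deposited, per the file headers, the Feature Extraction output of version 10.5.1.1: the intensity of each spot as median signal, local background and background-corrected signal, without normalization between arrays. The authors' tables of normalized log2 signals, ratios and p-values per tissue were not used. Control spots were left out, the median signal was quantile-normalized within a tissue (for tissue comparisons over all 48 arrays), put on the log2 scale, marked outlier spots were set to missing (at least 2 unmarked arrays per group) and spots of a probe were averaged. A probe counted as present, and was kept, where a group had at least 50% of its arrays with a signal over 25 that Feature Extraction marked as well above background.

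Fits used lmFit and eBayes of limma 3.58.1 in R 4.3.3, with Benjamini-Hochberg adjustment over all probes compared. The pig was a random block between tissues (estimated correlation 0.0301). Single probes were also tested by exact two-sided permutation over the 6435 distinct splits into 8 and 8 (4900 within groups for sex), whose smallest p-values are 0.000155 and 0.000408. The scripts were tested on simulated data. With a simulated log2 change of 0.5 between F2 E and F2 C, 31% of the changed probes were called in GM, 24% in liver and 10% in kidney. With a change of 1 it was 88%, 81% and 67%, so member ratios of the size seen here could often go uncalled. Genes were named through RefSeq accessions of the probes (2628 of 43603 probes), so probes with other transcript names were not assigned. The main probe of a gene is the one with the highest mean log2 signal over the 48 arrays. All members are accounted for, and pathway genes were named where called between F2 E and F2 C or among the 3 largest called tissue differences on each side; others are said in the text to be chosen after their values were seen. The members and lists were chosen with earlier results of these data known. Array files hold different values, and arrays of a tissue correlated with r from 0.924 to 0.993. Methylation and carcass data were not analysed here.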

Additional observations from a re-analysis of the deposited data

Results flagged for a closer look

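Over 66 sets of 8 pigs (11 member probes in 6 groups), the highest or lowest pig stood apart from the others in 2, measured by its gap to the next pig as a share of the whole range. By chance about 1 in 20 such sets would be marked. IGF1 in kidney of F2 C replicate 6 was 8.76 on the log2 scale, with the next pig at 8.18 and the lowest at 7.71 (gap 0.553 of the range). IGFBP5 in GM of the same pig, which is F2 C replicate 6 there too, was 10.76, with the next at 10.05 and the lowest at 9.58 (gap 0.603 of the range).

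In GM the interaction of group and number series passed for 3 of 11 member probes, where 7.00% of all probes passed. The IGF2 probes among them had opposite signs. The ratio in the upper series minus that in the lower was -1.625 on the log2 scale for GHR (95% interval from -2.29 to -0.956, limma adjusted p = 0.00735), -1.91 for IGF2 probe A_72_P303139 (from -2.68 to -1.14, adjusted p = 0.00665) and 0.8276 for IGF2 probe A_72_P055876 (from 0.315 to 1.34, adjusted p = 0.0498). The test was added after the values within the series were seen. Each set of 4 pigs lay on 1 slide, so number series and group together cannot be told apart from the slide.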

How the results depend on the processing

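Values of the member probes were computed again under 2539 combinations of result and alternative. Of these, 2515 kept their side of the limit or moved by less than the spread between pigs, 12 uncalled ratios moved by more, 118 uncalled ratios changed sign, 6 called tissue ratios lost their call (all of them IGF2 between liver and GM), 6 ratios passed that had not, and 0 called ratios changed sign. For F2 E against F2 C in GM the number of member probes called was 0 and became 1 with the number series as a block, where calls over all probes rose from 197 to 505, and 2 in the upper series alone, where they were 1090. In kidney it was 0 and became 1 in the upper series alone, with 534 calls over all probes against 4. With 1 pig left out, it ranged from 0 to 1 in GM, and for barrows against females in liver it ranged from 0 to 1. The cause was not tested. Alternatives not named here left these counts as they were or within 1.5 times. The normexp correction was run on the median signal, since the arrays analysed here carry no mean signal. This, the liver slides, the 2 dim kidney arrays, slide means in correlations, the slide as a block between tissues and the interaction with number series were chosen after seeing the data.

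Replicate numbers name different pigs and pair none of them: same-numbered pigs of F2 C and F2 E deviated together with r of -0.16 to 0.33 (GM), -0.09 to 0.58 (liver) and -0.57 to 0.46 (kidney), and only 1, 3 and 1 of 8 correlated best with their own number. With the replicate block, 0 member probes were called in each tissue, and IGF1 in GM had a log2 ratio of -0.51 (limma adjusted p = 0.124). Over all probes the block gave 51 calls in GM, 22 in liver and 0 in kidney, against 197, 27 and 4 without it. The slide as a random block gave 5, 20 and 1, the number series as a block 505, 46 and 9, and the lower series alone 348, 62 and 198. In liver the slide as a fixed block, when slides 1 and 2 alone bear on the group, gave 118 and the upper series alone 37. In kidney 7 were called without the 2 dim arrays. Depth limits IGF1R and IGFBP3 in GM most, where 12 and 14 of 16 spots were well above background. The dim spots were all in F2 E: 4 of 8 F2 E and 8 of 8 F2 C spots were well above background for IGF1R. For IGFBP3 it was 6 of 8 and 8 of 8.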
